A study of Mus musculus with 2 samples.

Results

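The genes that make serine, asparagine, proline and cysteine, or bring large neutral amino acids into the cell, are followed here by name in bulk RNA-seq values of mouse cells. The 10 genes were Phgdh, Psat1, Psph, Shmt2, Mthfd2, Asns, Aldh18a1, Pycr1, Cth and Slc7a5, and each stood on a single row of a table of 23466 rows. All 10 reached 1 FPKM (fragments scaled by the length of a transcript and by the depth of its library) in at least 1 library, the level taken here as measured, which 11771 genes did.

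The study had 2 libraries of cultures that the labels call primary microglia, macrophages that live in the brain. The control was given DMSO, the solvent, and the treated culture was given 1600 μM iron together with 1 μM RSL3, a small molecule that inactivates the lipid hydroperoxide-reducing enzyme GPX4. The combination was meant to induce ferroptosis, in which iron drives lethal lipid peroxidation, and the effects of iron and of RSL3 cannot be told apart because neither was given alone. The labels name no mouse strain, age, culture length or time of treatment. Each condition had 1 library, so every difference below compares those libraries, with no replicate check, no error between cultures and no test.

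Cells build serine from a glycolytic intermediate and pass its carbon into the folate cycle, where mitochondrial enzymes release it as formate for purine and thymidylate synthesis. Asparagine is made from aspartate, proline from glutamate and cysteine from serine and homocysteine. When amino acids are scarce or proteins misfold, kinases phosphorylate the initiation factor eIF2alpha, which favours translation of the transcription factor ATF4, and most of the genes followed here are known ATF4 targets. In the brain, de novo serine synthesis is best known from astrocytes.

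The labelled cell type was checked against marker genes. Of 9 microglial markers, 7 were under 1 FPKM in both libraries, none reached 10 FPKM in both, and Aif1 and Cx3cr1 were listed at 0 in both. The summed level of the 9 was 3.46 and 7.25 FPKM. All 10 mesenchymal markers reached 10 FPKM in both libraries, and their summed level was 7093 FPKM with DMSO and 6341 FPKM with iron plus RSL3. Of 8 astrocyte markers, 1 reached 10 FPKM in both libraries, the gap junction gene Gja1, and the summed level was 36.3 and 43.5 FPKM. In both libraries the mesenchymal markers were thus far more abundant than the microglial ones, so the marker levels do not match the label. In bulk RNA, fewer cells of a type and less RNA per cell cannot be told apart. The part that cell makeup plays in the differences below was not tested.

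FPKM values are relative to the whole library, and most genes had lower values in the treated one. The median log2 change of the 11771 measured genes, iron plus RSL3 minus DMSO as log2(FPKM + 1), was -0.38. By a rule of 2-fold, 500 genes (4.25%) were higher and 1384 (11.8%) lower, while dividing by the median ratio of abundant genes gave 676 and 803. A log2 change above 0 was found for 25.7% of measured genes. This scale understates the change of weak genes, here Cth and Pycr1.

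Slc7a5 was the 1 gene past 2-fold, beside the 4.25% of all measured genes that were higher by that rule, and none was 2-fold lower, beside 11.8%. By 1.5-fold, 3 of the 10 were higher, beside 8.28% of all measured genes, and 2 were lower, beside 34.7%. By 3-fold none was higher or lower, beside 2.23% and 1.15%. The median log2 change of the 10 genes was 0.35, with a range from -0.75 to 1.01. Of the 10, 7 had a log2 change above 0, against 25.7% of all measured genes, and this number was 6 with equal library totals and 8 after dividing by the median ratio. The other 3 were below 0, as were 74.3% of all measured genes. Against the median of all measured genes, 8 of the 10 lay above and 2 below, and the pair below were both proline synthesis genes. Without a filter on low values the median of all genes was 0.00, and 7 of the 10 lay above it, with Psat1 at -0.01. The summed level of the 10 genes was 399.3 FPKM with DMSO and 491.4 FPKM with iron plus RSL3, which was 0.104% and 0.115% of the respective FPKM totals.

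**Figure D1:**
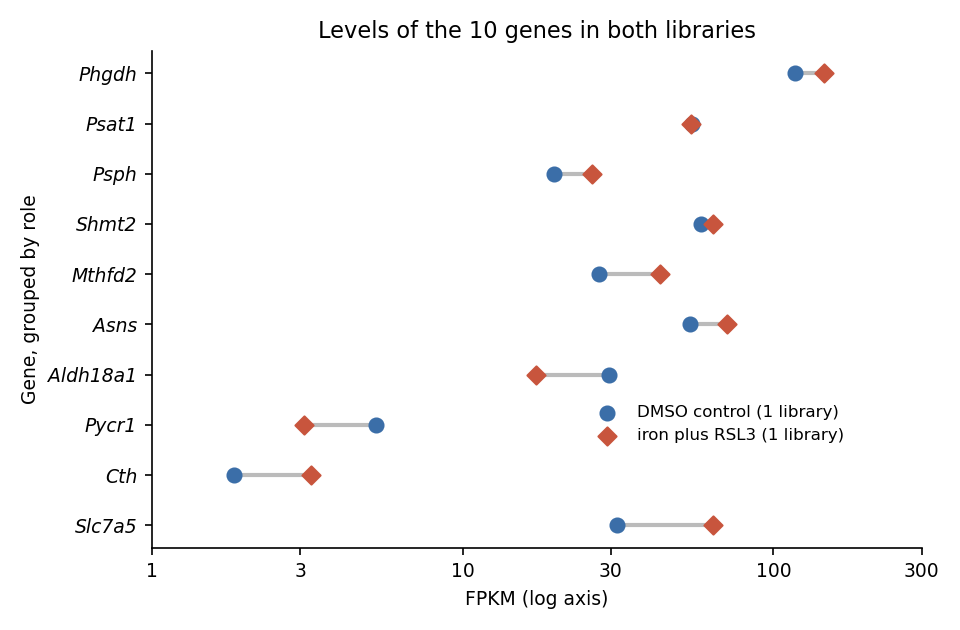
FPKM on a log axis for each of the 10 genes, with a circle for the DMSO control and a diamond for the culture given iron plus RSL3, 1 library each and no error bars. Phgdh is the most abundant in both libraries at 117.2 and 145.4 FPKM, and Aldh18a1 and Pycr1 have their treated value clearly to the left of the control value.

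The largest difference belonged to amino acid uptake. Slc7a5 (chromosome 8, 121881150 to 121907694, minus strand, GRCm38) encodes LAT1, the transporter that exchanges glutamine for leucine and other large neutral amino acids. It was at 31.4 FPKM with DMSO and at 64.0 FPKM with iron plus RSL3. The treated level was 2.04 times the control level, a log2 change of 1.01, and 95.8% of measured genes had a smaller log2 change. The value stood just inside the 2-fold rule: it became 0.85 with equal totals and 0.94 with equal totals after leaving out mitochondrial and top genes, and 1.22 after dividing by the median ratio. If a step in the low values is 1 fragment, the levels correspond to about 1818 and 4049 fragments, and the exact 95% binomial interval of the ratio ran from 1.93 to 2.16, covering counting error only. Of the 9 genes within 2-fold, Aldh18a1 came nearest to it, in the other direction, at -0.75.

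LAT1 works as a heterodimer with the heavy chain 4F2hc, encoded by Slc3a2. Slc3a2 was at 73.1 FPKM with DMSO and at 199.6 FPKM with iron plus RSL3, which is a log2 change of 1.44. Per length, Slc3a2 was 2.33 times as abundant as Slc7a5 in the control and 3.12 times in the treated library, so the difference was larger for the heavy chain than for Slc7a5. The heavy chain also pairs with the cystine importer subunit Slc7a11, which was at 1.45 and 32.8 FPKM. Slc7a8, which encodes the related transporter LAT2, was listed at 0 in the control and stood at 0.18 FPKM in the treated library.

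The serine pathway has 3 enzymes, and none was past 2-fold. Phgdh (chromosome 3, 98313170 to 98339990, minus strand), phosphoglycerate dehydrogenase, carries out the first and committed step. It was the most abundant of the 10 genes in both libraries, at 117.2 FPKM with DMSO and at 145.4 FPKM with iron plus RSL3, which is a log2 change of 0.31. Its values carry a reservation about counting. Its longest coding transcript, of 1893 bases, matched 17 processed pseudogenes at other loci at 90% identity or more over at least 150 bases, the closest with 98.7% identity over 1597 bases, so reads may be shared between these copies. By the same search Psat1 and Shmt2 each matched 1 pseudogene, at 91.0% and 90.1% identity, and the other 7 genes matched no other locus.

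Psat1 (chromosome 19, 15904678 to 15947337, minus strand), the aminotransferase of the second step, was at 54.7 FPKM with DMSO and at 54.3 FPKM with iron plus RSL3. That is a log2 change of -0.01, which was 0.21 after dividing by the median ratio and -0.16 with equal totals, so its direction depended on the scale. Its counting interval for the ratio ran from 0.938 to 1.05. Psph (chromosome 5, 129765558 to 129787449, minus strand), the phosphatase of the last step, was at 19.6 and 26.0 FPKM, and its log2 change was 0.39. It overlaps 452 bases of a Cct6a transcript on the opposite strand, and without strand marking reads from both cannot be told apart. Counted over whole genes with introns, Psat1, Shmt2 and Slc7a5 also overlap other annotated genes on the opposite strand. Mthfd2, Aldh18a1 and Cth overlap others on the same strand. The longest overlap was that of Slc7a5 with Gm20388, of 26545 bases, and Gm20388 was listed at 0 FPKM in both libraries. The 3 enzymes kept the same order of abundance in both libraries, with Phgdh highest and Psph lowest. Relative to the median of all measured genes they stood 0.69 (Phgdh), 0.37 (Psat1) and 0.77 (Psph) higher on the log2 scale.

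Shmt2 and Mthfd2 carry serine carbon into the mitochondrial folate cycle. Shmt2 (chromosome 10, 127517123 to 127522444, minus strand), the mitochondrial serine hydroxymethyltransferase that splits serine into glycine and a folate-bound carbon, was at 58.4 FPKM with DMSO and at 63.99 FPKM with iron plus RSL3. Its log2 change of 0.13 became -0.02 with equal totals. Mthfd2 (chromosome 6, 83305691 to 83325908, minus strand), the mitochondrial methylenetetrahydrofolate dehydrogenase and cyclohydrolase, was at 27.5 and 43.2 FPKM, and its log2 change of 0.63 lay between 0.48 and 0.85 under the other scales and pseudocounts. The treated level was 1.57 times the control level, and 92.5% of measured genes had a smaller log2 change.

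The cytosolic counterparts of these enzymes had negative log2 changes, as did 74.3% of all measured genes, whose median was -0.38. Shmt1, the cytosolic serine hydroxymethyltransferase, was at 8.32 FPKM with DMSO and at 5.21 FPKM with iron plus RSL3, which is a log2 change of -0.59. The level of Shmt2 was therefore 7.02 times that of Shmt1 in the control and 12.3 times in the treated library. Mthfd1, the trifunctional cytosolic enzyme, was at 22.7 and 6.49 FPKM, and its log2 change of -1.66 was past 2-fold. Mthfd2 and Mthfd1 stood at similar levels in the control, where Mthfd2 was 1.21 times as abundant, and apart in the treated library, where it was 6.66 times as abundant. The mitochondrial formate-releasing enzyme Mthfd1l was at 20.1 and 22.95 FPKM, and Mthfd2l, the paralogue of Mthfd2, at 5.66 and 5.65 FPKM.

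**Figure D2:**
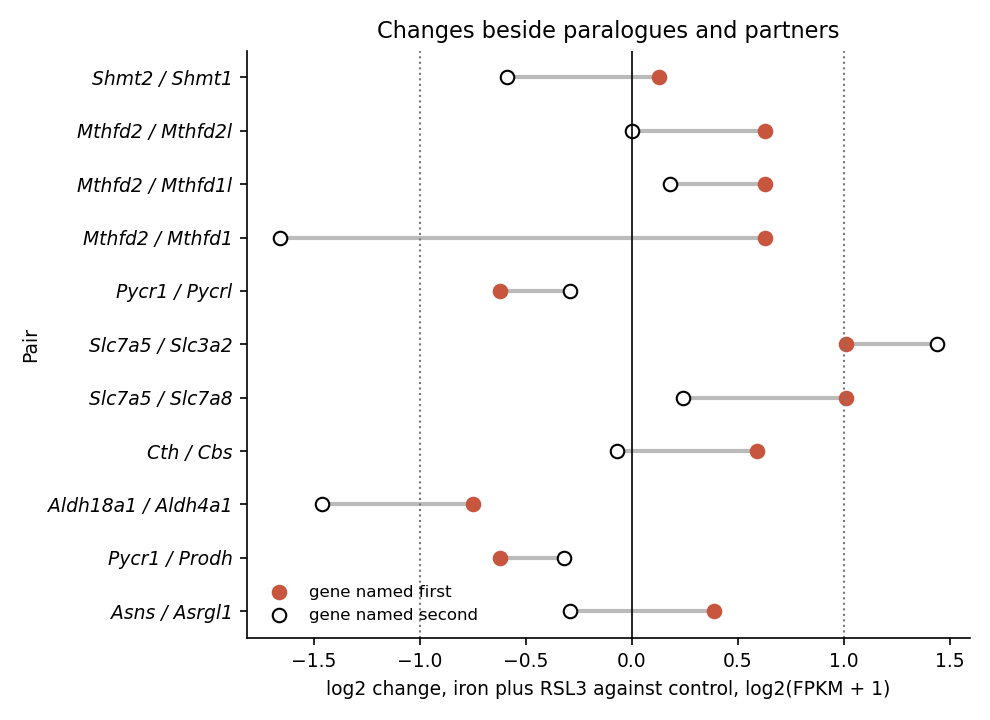
Log2 change of 11 pairs made of 1 of the 10 genes (filled) and a paralogue or partner (open), treated against control on log2(FPKM + 1), with dotted lines at 2-fold and 1 library per condition. The widest gap is that of Mthfd2 (0.63) and Mthfd1 (-1.66), and Slc3a2 (1.44) lies well to the right of the 2-fold line while Slc7a5 (1.01) lies on it and falls short of it with equal totals.

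Asparagine synthetase, encoded by Asns (chromosome 6, 7675169 to 7693254, minus strand), transfers the amide of glutamine to aspartate and is a classical readout of ATF4. It was at 53.9 FPKM with DMSO and at 70.9 FPKM with iron plus RSL3, 1.32 times as high. The log2 change was 0.39, from 0.24 with equal totals to 0.61 after dividing by the median ratio. Asrgl1, an asparaginase that acts in the opposite direction, was at 1.46 and 1.02 FPKM. Per length, Asns was 36.9 times as abundant as Asrgl1 in the control and 69.8 times in the treated library. These ratios rest on Asrgl1 values close to the 1 FPKM taken as measured. The log2 change of Asrgl1 was -0.29, beside a median of -0.38 for all measured genes.

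Both proline synthesis genes had negative log2 changes, as did 74.3% of all measured genes. Relative to the median of all measured genes they were at -0.37 (Aldh18a1) and -0.24 (Pycr1). Aldh18a1 (chromosome 19, 40550257 to 40588463, minus strand) encodes the synthase that turns glutamate into pyrroline carboxylate. It was at 29.5 FPKM with DMSO and at 17.2 FPKM with iron plus RSL3, with a log2 change of -0.75, and was 1.72 times lower as a plain ratio. Pycr1 (chromosome 11, 120635712 to 120643769, minus strand), a mitochondrial reductase that makes proline from that product, was at 5.26 and 3.09 FPKM, with a log2 change of -0.62, and was 1.70 times lower as a plain ratio. Both remained below 0 under every scale and pseudocount tried, between -0.90 and -0.54 for Aldh18a1 and between -0.77 and -0.45 for Pycr1. Neither passed 2-fold, and 24.1% and 32.5% of all measured genes had a smaller log2 change. With its longest coding transcript, Pycr1 rests on about 253 and 162 fragments, with a counting interval of the ratio from 0.479 to 0.717, and with its shortest, of 542 bases, on about 47 and 30, with an interval from 0.357 to 0.944.

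The cytosolic reductase Pycr3, listed as Pycrl, was more abundant than Pycr1 at 16.5 FPKM with DMSO and 13.3 FPKM with iron plus RSL3, and its log2 change was -0.29. On the breakdown side, Aldh4a1, which oxidises pyrroline carboxylate back to glutamate, was at 9.32 and 2.76 FPKM, past 2-fold with a log2 change of -1.46. Prodh, proline dehydrogenase, was under 1 FPKM in both libraries, at 0.52 and 0.22 FPKM.

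Cth (chromosome 3, 157894248 to 157925077, minus strand), cystathionine gamma-lyase, releases cysteine in the last step of transsulfuration. It was the weakest of the 10 genes in the control, at 1.84 FPKM, and stood at 3.26 FPKM in the treated library. The plain ratio was 1.78 and the log2 change 0.59, which became 0.80 with a pseudocount of 0.1 FPKM. These levels correspond to about 55 and 106 fragments, with a counting interval of the ratio from 1.26 to 2.49, the widest on the longest coding transcripts of the 10 genes. Cbs, the enzyme of the preceding step, was at 0.10 and 0.05 FPKM.

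**Figure D3:**
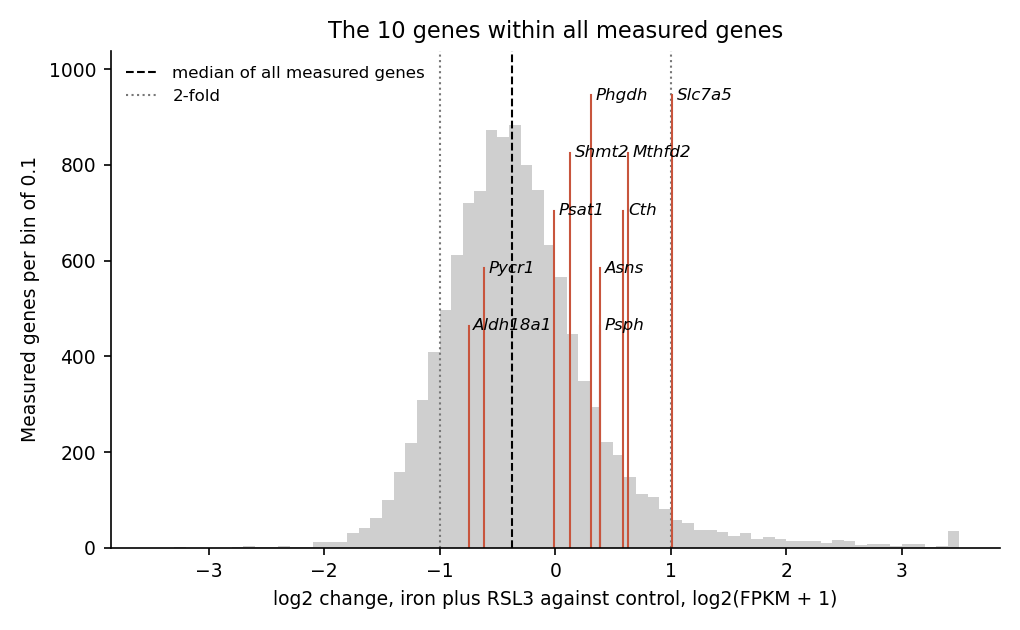
Number of measured genes per bin of 0.1 in log2 change (grey, 11771 genes, with values beyond -3.5 or 3.5 placed in the end bins), with red lines at the 10 genes, a dashed line at the median of -0.38 and dotted lines at 2-fold. Aldh18a1 and Pycr1 lie left of the median and the other 8 genes lie right of it, with Slc7a5 at the 2-fold line.

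Promoter letters were read because many of these genes are known targets of ATF4, which binds with C/EBP partners at the element TGATGNAAN, and because the oxidative stress factor NRF2 is known to act at the antioxidant response element TGACNNNGC. RefSeq windows (GRCm38.p6, 250 bases before to 50 after a transcript start, both strands searched) were matched for 8 of the 10 genes. Slc7a5 and Cth had no entry. TGATGNAAN was found in 2 of the 8 genes, Asns and Pycr1, beside 3.95% of the 32851 windows of the table. Its narrower form TGATGCAAN, contained in the first, was found in Pycr1 alone of the 8, beside 0.889% of windows. The matches are shown with 10 bases on each side, 5′ to 3′ on the strand of the gene, which is the minus strand in each case, with the element in capitals.
Asns: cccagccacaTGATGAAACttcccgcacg
Pycr1: gccctgtgtaTGATGCAATgcacaaggct
The Asns element ran from base -23 to -15 against the RefSeq start (window at chr6:7693214-7693242) and the Pycr1 element from -103 to -95 (window at chr11:120643833-120643861). The genes that share these letters differed in direction under each scale tried, with log2 changes of 0.39 for Asns and -0.62 for Pycr1.

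The antioxidant element TGACNNNGC was found in 3 of the 8 genes, beside 12.4% of windows, each time on the strand opposite to the gene. Asns and Phgdh held it before the start, and its reverse complement is in capitals here.
Asns: tatcctgcctGCAGTGTCAcagcacctta
Phgdh: gcccggggagGCGGAGTCAgcagagttta
The Asns match lay at -172 to -164 (window at chr6:7693363-7693391) and the Phgdh match at -53 to -45 (window at chr3:98340004-98340032). The third was in Psph, at 5 to 13 after the start. These 3 genes had log2 changes between 0.31 and 0.39. Psat1, Shmt2, Mthfd2 and Aldh18a1 held neither element in these windows, which says only that the letters are not there.

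Genes around the 10 were taken from lists of the same pathways. Of 27 other serine, glycine and one-carbon genes, 23 were measured, 5 were 2-fold lower and none was 2-fold higher, and their median of -0.53 stood beside -0.38 for all measured genes. Besides Mthfd1 these were Fpgs, which attaches glutamates to folates (14.5 and 3.84 FPKM), the purine synthesis genes Gart (29.1 and 9.65 FPKM) and Atic (54.8 and 26.8 FPKM), and Mtfmt, the mitochondrial formyltransferase of initiator methionine (6.04 and 2.13 FPKM). Atic was named after its values had been seen and missed 2-fold after dividing by the median ratio (-0.79). That setting gave 4 lower and 1 higher, and a pseudocount of 0.1 FPKM gave 8 lower. Of all 11771 measured genes, 1384 (11.8%) were lower as reported. Dividing by the median ratio gave 676 higher and 803 lower among them, and a pseudocount of 0.1 FPKM gave 2379 lower.

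Of 16 proline, glutamate and ornithine genes, 13 were measured, 2 were higher and 1, Aldh4a1, was lower, beside 4.25% and 11.8% of all measured genes, with a median of 0.19. Dividing by the median ratio gave 4 higher, a filter of 5 FPKM gave 1 higher, and equal totals gave 2 lower, as did a pseudocount of 0.1 FPKM. For all genes, the median ratio gave 676 higher and the filter, which keeps fewer genes, 410. Equal totals gave 1970 lower and the pseudocount 2379. Glul, glutamine synthetase, which supplies the amide donor of asparagine synthesis, was at 13.2 FPKM with DMSO and at 66.6 FPKM with iron plus RSL3, 5.04 times as high. Arg2, the mitochondrial arginase, was listed at 0 in the control and stood at 1.47 FPKM in the treated library. Of 13 aspartate and asparagine genes, 11 were measured, none was higher and 2 were lower, beside 4.25% and 11.8% of all measured genes, and the median of -0.29 was close to the -0.38 of all measured genes. The lower genes were Cad, which starts pyrimidine synthesis from aspartate (21.7 and 7.71 FPKM), and Slc25a13, a mitochondrial aspartate and glutamate carrier (6.41 and 2.07 FPKM).

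Of 20 transsulfuration and methionine cycle genes, 16 were measured, none was higher and 2 were lower, near the 4.25% and 11.8% of all measured genes, and the median of -0.50 stood beside -0.38. Suox, sulfite oxidase, was at 4.62 and 0.89 FPKM. Mtrr, which reactivates methionine synthase, was at 8.90 and 3.79 FPKM and missed 2-fold after dividing by the median ratio (-0.87).

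Amino acid transporters went both ways. Of 30 listed beside Slc7a5, 25 were measured, 6 were higher by 2-fold and 1 was lower, beside 4.25% and 11.8% of all measured genes, with a median of 0.08 that became -0.04 with equal totals. With a pseudocount of 0.1 FPKM 7 were higher and 4 lower, and with equal totals 5 were higher and 2 lower. Among all 11771 measured genes, the pseudocount gave 655 higher and 2379 lower, and equal totals gave 425 and 1970. Besides Slc7a11 and Slc3a2, Slc38a2, a sodium-coupled carrier of small neutral amino acids, was at 49.0 FPKM with DMSO and at 200.2 FPKM with iron plus RSL3, and Slc16a10, an aromatic amino acid transporter, at 2.52 and 9.42 FPKM. Slc1a4, which carries serine and alanine, was at 10.5 and 22.2 FPKM and missed 2-fold with equal totals (0.87), and Slc6a9, the glycine transporter GlyT1, at 5.88 and 16.7 FPKM. The last pair was named after their values had been seen. The lower gene was Slc38a6, at 6.14 and 2.34 FPKM, which missed 2-fold after dividing by the median ratio (-0.94).

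Other ATF4 response genes were set beside the 10. Atf4 itself was at 118.6 FPKM with DMSO and at 304.8 FPKM with iron plus RSL3, which is a log2 change of 1.35. Of 20 such genes outside amino acid synthesis, all were measured, with a median of 1.37. By 2-fold, 13 were higher and none was lower, beside 4.25% and 11.8% of all measured genes. Under the other settings of pseudocount, filter and scale 11 to 15 were higher, beside 410 to 676 of all genes kept. Ddit3, which encodes CHOP, was at 128.2 and 448 FPKM, Ppp1r15a, the eIF2alpha phosphatase subunit GADD34, at 14.2 and 193.5 FPKM, and Stc2, a secreted glycoprotein gene, at 1.34 and 14.96 FPKM. Atf5, a related factor, was at 72.5 and 112.3 FPKM and not past 2-fold. Of all measured genes, 4.25% were higher by that rule, and none of the 9 biosynthetic genes among the 10 was, a count close to that share. A further list of 12 cytosolic aminoacyl-tRNA synthetase genes, in part ATF4 targets, did not share the high values of the 20. None of the 12 was 2-fold higher and 1 was lower, near the 4.25% and 11.8% of all measured genes, with a median of -0.34. The differences between the lists were not tested.

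**Figure D4:**
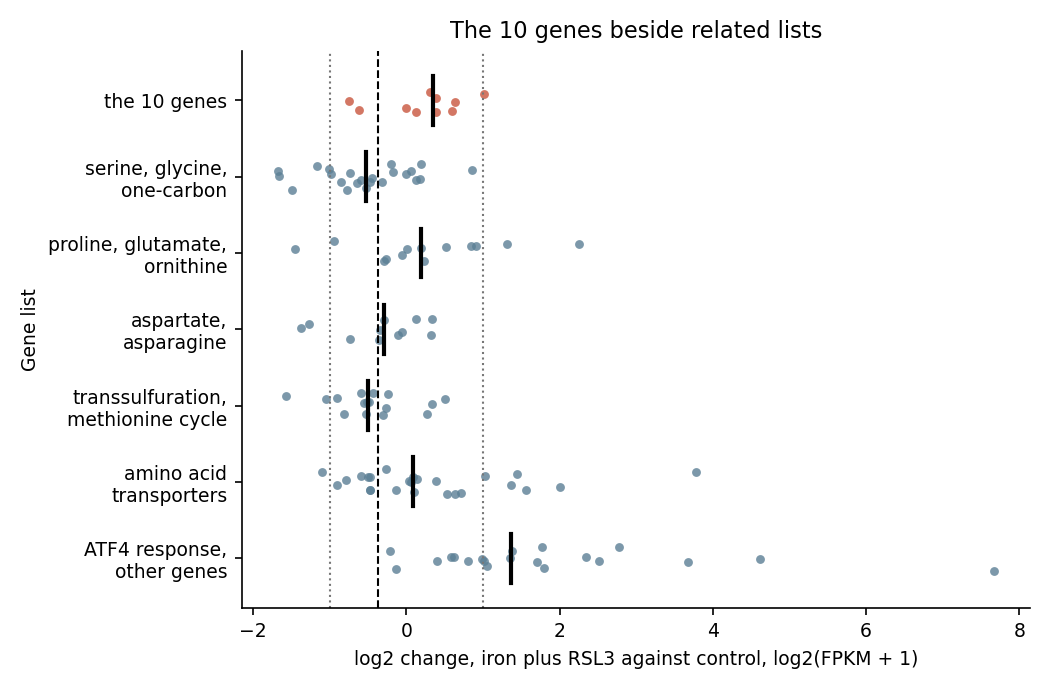
Log2 change of each measured gene (points) with the list median (black bar) for the 10 genes and 6 related lists, treated against control on log2(FPKM + 1), with a dashed line at the median of all measured genes and dotted lines at 2-fold. The 10 genes have a median of 0.35, above the proline, glutamate and ornithine list at 0.19 and the transporters at 0.08. The one-carbon list has the lowest median at -0.53, and the ATF4 response list the highest at 1.37. Aldh18a1 (-0.75) and Pycr1 (-0.62) lie below each median drawn. Atf3, at 7.67, is the highest gene of the ATF4 response list. The lists of tRNA synthetases (median -0.34) and of eIF2alpha kinases are not drawn.

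In both libraries the 10 genes ranged widely in abundance. Among annotated genes Phgdh ranked 510 with DMSO and 470 with iron plus RSL3, and Cth ranked 10377 and 8348. In the order of the 10 genes, Slc7a5 moved from place 5 to place 3 and Asns from 4 to 2. Shmt2 moved from 2 to 4, Psat1 from 3 to 5 and Aldh18a1 from 6 to 8. Some of these places rest on nearly equal values: in the treated library Slc7a5 was at 64.02 and Shmt2 at 63.99 FPKM. Asns, Psat1 and Shmt2 stood close together in the control, between 53.9 and 58.4 FPKM, and spread from 54.3 to 70.9 FPKM in the treated library.

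**Figure D5:**
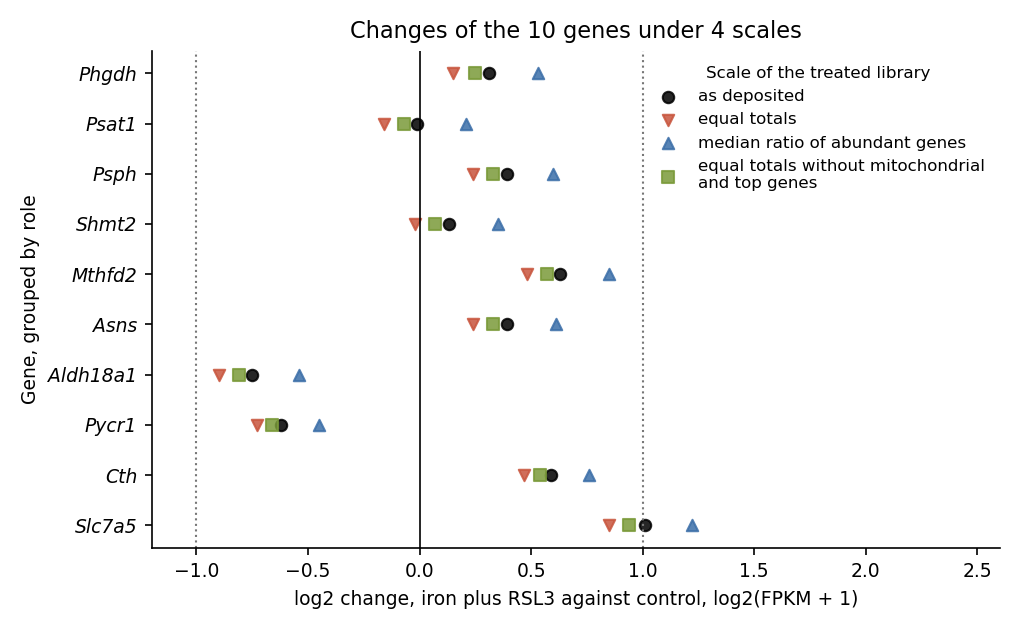
Log2 change of the 10 genes on log2(FPKM + 1) with the treated library as deposited and under 3 other scales, with dotted lines at 2-fold. The scales move all genes together, Psat1 and Shmt2 cross 0, Slc7a5 lies on both sides of 2-fold (0.85 to 1.22), and Aldh18a1 and Pycr1 stay below 0.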

How the data were processed

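Poly(A) RNA was extracted with TRIzol, captured on oligo(dT) beads and sequenced as fragmented cDNA, per the labels' protocols, which name no strand-marking step. The authors deposited FPKM values, 1 column per library. Per the submitters' processing notes, the build was GRCm38 and the tools included StringTie, HISAT2, edgeR and DESeq2. Their versions, the annotation and any filter are not stated there. Each column was matched to a sample by its library name, and each sample to a group by its title.

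Genes with at least 1 FPKM in either library were compared as log2(FPKM + 1), treated minus control, with a size rule of 2-fold. With 1 library per condition no test was made. Of several rows with 1 symbol, the more abundant was taken. The 10 genes, the 8 related lists and the pairs were chosen with earlier results of these data known. Named genes were the 10, their pair partners, Atf4, Ddit3, Atf5 and up to 4 genes past 2-fold per direction and list, or the 2 most abundant where none passed. With 2 libraries, likeness of pattern is 1 difference, so no genes were ranked by it. Some genes of the lists are not reported here.

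Read counts were not used. For genes with 1 annotated transcript, FPKM times length clustered at 60.7 (control) and 55.6 (treated). Of low values, 32.8% and 35.6% lay within 0.05 of a whole step (10% if evenly spread), so whole fragments were not recovered. If a step is 1 fragment, 1 FPKM on 1000 bases is about 16.5 and 17.98 fragments. Exact 95% binomial (Clopper-Pearson) intervals of ratios rest on these estimates and cover counting error only. Coordinates and transcript lengths are those of GENCODE M21 (GRCm38), and copies were sought with blastn 2.17.0. Calculations ran in Python 3.11.15 with numpy 2.4.6, pandas 2.3.3 and scipy 1.17.1 and were tested on simulated libraries.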

Additional observations from a re-analysis of the deposited data

How the results depend on the processing

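Depth limits Cth and Pycr1 most, and no setting replaces the missing replicates. No paired analysis was possible because each group had 1 library. No gene was 2-fold lower among the 10 in any setting of pseudocount, filter or scale, beside 803 to 2492 of all genes kept. The number 2-fold higher, 1 as reported, was 0 with equal totals, beside 425 of all measured genes. It was also 0 with equal totals without mitochondrial and top genes, beside 457. By a size rule of 1.5-fold, 3 were higher and 2 lower, beside 8.28% and 34.7% of all measured genes, and by 3-fold 0 were higher. The median of the 10 genes, 0.35, became 0.31 with a filter of 5 FPKM (which leaves out Cth), 0.19 with equal totals, 0.56 after dividing by the median ratio and 0.29 without mitochondrial and top genes.

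For all genes, the median of -0.38 became -0.43 with a pseudocount of 0.1 FPKM, -0.44 with the plain ratio, -0.36 with a filter of 5 FPKM, 0.00 without a filter, -0.51 with equal totals, -0.19 after dividing by the median ratio and -0.43 without mitochondrial and top genes. The number lower, 1384, became 2379 with a pseudocount of 0.1 FPKM, 2492 with the plain ratio and 803 after dividing by the median ratio. A rule of 1.5-fold gave 975 higher and 4089 lower, and 3-fold gave 262 and 135. The cause was not tested. Of 69 alternative values for the 10 genes, 2 had the other sign, Shmt2 (-0.02, equal totals) and Psat1 (0.21, median ratio), and 2 took Slc7a5 under 2-fold.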

Other observations

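The kinases and tRNA synthetases on either side of the ATF4 response were also measured. The 4 eIF2alpha kinases had none past 2-fold, with a median log2 change of -0.47 beside -0.38 for all measured genes. Eif2ak1, the haem-regulated kinase HRI, was at 16.3 FPKM with DMSO and at 7.66 FPKM with iron plus RSL3, which is a log2 change of -0.99 that passed 2-fold with a pseudocount of 0.1 FPKM (-1.08) and with equal totals (-1.13). Eif2ak2, the double-stranded RNA sensor PKR, was at 14.5 and 7.54 FPKM. Of 12 cytosolic aminoacyl-tRNA synthetase genes, which charge tRNAs and are in part ATF4 targets, none was at least 2-fold higher and 1 was lower, near the 4.25% and 11.8% of all measured genes, and the median of -0.34 was close to their -0.38. The lower gene was Wars, the tryptophanyl-tRNA synthetase, at 30.3 and 12.8 FPKM, which missed 2-fold after dividing by the median ratio (-0.98).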
